A study of Mus musculus with 2 samples.

Results

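The cells described here are B cells of the dorsal meninges that carry transcripts of mature follicular B cells, and they are called follicular-marker B cells below. They were selected cell by cell on their UMIs (unique molecular identifiers, each counting 1 captured transcript molecule). A cell was taken if it held at least 2 UMIs of Cd79a and Cd79b together, at least 2 of the 7 follicular markers Fcer2a, Ighd, Cr2, Fcmr, Cd55, Cxcr5 and Bank1, no UMI of the T cell gene Cd3e, and at most 1 of the 6 precursor genes Igll1, Rag1, Rag2, Vpreb1, Cecr2 and Cplx2. Of 5816 cells that passed the filters on genes, mitochondrial UMIs and hemoglobin UMIs, 553 met these criteria, 306 of 2043 cells in Sham and 247 of 3773 cells in TBI.

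The study profiled whole dorsal meninges by droplet single-cell RNA-seq (10x Genomics, 3′ version 2 chemistry) after a mild closed-skull traumatic brain injury (TBI) or a Sham procedure. Both groups were male C57BL/6 mice (C57BL/6J wild type in the methods), 10 weeks old in a source label and 10 to 12 weeks old in the age label, and tissue was taken 1 week after the procedure, from a region that left out the point of impact. Meninges of 5 mice were pooled into 1 library per group, so the spread between mice was not recorded, no test between Sham and TBI is possible, and every interval below is a 95% interval for counting error only. The Sham library held 9527334 UMIs over 2699 barcodes and the TBI library 15011079 UMIs over 4349 barcodes. The follicular-marker B cells had a median of 3227.5 UMIs (range 516 to 14598) and 1340 genes in Sham, and of 2783 UMIs (511 to 15245) and 1295 genes in TBI. The libraries shared 20 cell barcodes, none of them among the follicular-marker B cells.

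As background, B cells arise in bone marrow from precursors that rearrange their immunoglobulin genes under Rag1 and Rag2 and divide behind a surrogate light chain. They then leave the cycle, display IgM, pass through a transitional stage, and become follicular B cells that add IgD and CD23, respond to the chemokine CXCL13 through CXCR5, recirculate through blood and lymph, and depend on the cytokine BAFF. The meninges hold both developing and mature B cells, in part supplied from the marrow of the overlying skull.

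The 7 follicular markers chose the cells, so their levels are a description. Fcmr, the receptor for IgM (chromosome 1, 130865669 to 130880791, GRCm38), was the most widely detected, in 89.2% of the cells in Sham and 91.1% in TBI. Bank1, an adaptor of the B cell receptor, was detected in 76.5% and 71.3%, and Ighd, the constant region of IgD, in 56.9% and 51.8%. Cd55, a membrane brake on complement, followed with 46.7% and 47.4%. Fcer2a, which encodes the low-affinity IgE receptor CD23 (chromosome 8, 3681737 to 3694175), was found in 38.9% and 43.7%. Cxcr5 was found in 32.7% and 31.6%, and Cr2, the complement receptor CD21, in 18.0% and 14.6%. Endothelial cells of the same libraries had median depths of 1923 and 2077 UMIs. No marker other than Cd55 reached 1% of these cells. Cd55 was found in 1.05% and 3.84% of them, and whether it was free RNA or their own transcript was not tested. With each cell thinned to 1000 UMIs, which 292 Sham and 234 TBI cells allowed, Fcer2a was detected in 20.2% and 20.9%, so the shares above depend on depth.

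Genes that the selection did not use were then read. Ms4a1 (CD20) was detected in 92.5% of the cells in Sham and 92.3% in TBI. The graph clusters are a description, since they used the same cells and the cluster that held most of these cells was led by Ms4a1, Fcmr, Iglc2, Iglv3 and Fcer2a, of which Fcmr and Fcer2a also chose the cells. It held 651 cells, among them 521 follicular-marker B cells (94.2% of these) and 96 of 116 Ms4a1 B cells lacking follicular markers (82.8%), a class defined by a UMI of Ms4a1 and at most 1 follicular marker, and so it did not separate these classes. Another 12 follicular-marker B cells fell in the cluster led by Rag1 and Vpreb1. Markers of later B cell states were mixed. The 8 plasma cell genes had 225 UMIs in Sham and 177 in TBI, and 54 Sham and 34 TBI cells held at least 2 of these UMIs. Most came from Xbp1, a factor of secretory cells (117 and 85 UMIs), Slamf7, a receptor of the SLAM family (51 and 53), and Irf4 (37 and 30), while Sdc1, the surface marker CD138, had 10 and 4 and Prdm1, the factor Blimp-1, had 2 and 0. Jchain, which links secreted IgM and IgA, had 0 UMIs in Sham and 1 in TBI, and the memory marker Cd27 had 2 and 0. Transcripts of the constant regions Ighg1, Ighg2c, Ighg3 and Ighe were at 0 in both libraries, Ighg2b had 0 and 1 UMIs, and Igha had 9 and 8, against 2145 and 1581 UMIs of Ighm. With 0 counts, the level can be at most 2.87 CPM in Sham and 3.77 CPM in TBI (3 UMIs, CPM being the UMIs of a gene scaled to 1000000 UMIs of a class in a library). The 10 genes of the marginal zone and B-1 list ranged widely. Mzb1, a chaperone of antibody assembly (377 UMIs in Sham and 282 in TBI), Plac8 (299 and 248), Cd1d1, a lipid antigen presenter high on marginal zone B cells (48 and 59), Dtx1, a regulator of Notch signals (48 and 21), Cd9 (17 and 25), Spn, which encodes CD43 (15 and 9), and Myof (12 and 9) were detected. Cd5 had 2 UMIs in each library, Zbtb32 1 in each, and Bhlhe41 4 and 2. Between the libraries, none of the 4 genes with enough UMIs to compare differed by 2-fold.

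Vpreb3 went against a uniformly mature population. It encodes a partner of newly made immunoglobulin chains in early B lineage cells (ENSMUSG00000000903, chromosome 10, 75943057 to 75949657), and it was detected in 72.5% of the follicular-marker B cells in Sham and 68.4% in TBI. Fcer2a and Vpreb3 were found together in 78 Sham and 63 TBI cells, Fcer2a without Vpreb3 in 41 and 45, Vpreb3 without Fcer2a in 144 and 106, and neither in 43 and 33. Cells with UMIs of both genes were thus present in both libraries. Fcer2a also chose the cells, and detection of both genes fell when cells were thinned. A cell with no UMI of a gene may therefore still express it, and these counts cannot separate distinct patterns.

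**Figure D1:**
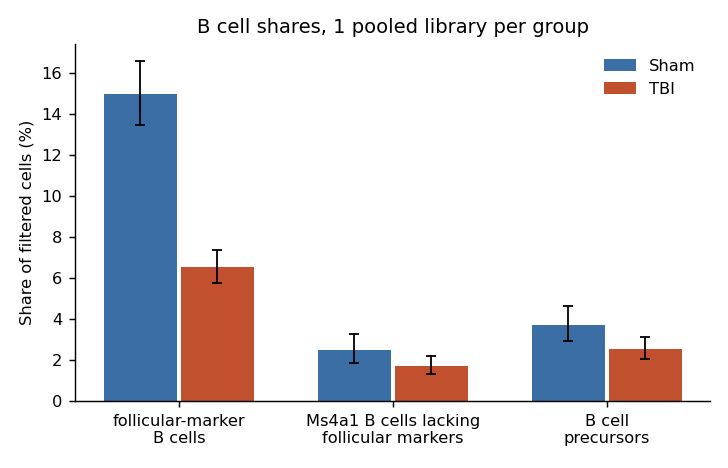
Share of filtered cells (%, y axis) that were follicular-marker B cells, Ms4a1 B cells lacking follicular markers, or B cell precursors in the Sham (blue) and TBI (red) libraries, 1 pooled library per group, with exact binomial 95% intervals. The follicular-marker B cells were 15.0% of cells in Sham and 6.55% in TBI, and the other B lineage classes also took smaller shares in TBI.

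The share of follicular-marker B cells was lower in the TBI library. They made up 15.0% of filtered cells in Sham (exact interval 13.5 to 16.6) and 6.55% in TBI (5.78 to 7.38), a difference of -8.43 points (Newcombe interval -10.2 to -6.73). Among cells with a UMI of Ptprc, the leukocyte antigen CD45, they made up 22.9% in Sham and 12.8% in TBI, a difference of -10.1 points. Within the B lineage the gap was also present. They were 306 of 433 B lineage cells in Sham (70.7%, interval 66.1 to 74.9) and 247 of 409 in TBI (60.4%, 55.5 to 65.2), a difference of -10.3 points (-16.6 to -3.86). Precursors were 3.72% and 2.57% of filtered cells, and Ms4a1 B cells lacking follicular markers were 2.50% and 1.72%. Thinned to 1000 UMIs before selection, follicular-marker B cells were 10.4% of cells in Sham and 4.05% in TBI. Only cells with at least 1000 UMIs entered these shares, 1655 in Sham and 3234 in TBI. With 1 library per group, the injury and any other difference between the libraries cannot be told apart. Sham had 604 barcodes over the hemoglobin limit and TBI 431.

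The number of markers per cell ran without a gap across the threshold. Cells that met all other criteria held 0 to 7 follicular markers, in 34, 63, 77, 89, 56, 57, 21 and 6 cells in Sham and in 71, 81, 70, 61, 59, 35, 20 and 2 cells in TBI. Those with 0 markers were not shown to be B cells. Their median of Cd79a and Cd79b UMIs was 3.5 in Sham and 4 in TBI, against 32 in both with 2 markers. Ms4a1 was detected in 9 of the 34 and 18 of the 71. Just outside the threshold of 2 markers were thus 63 Sham and 81 TBI cells with 1 marker, and just inside were 77 and 70 cells with 2. On the other criteria, 1 UMI of Cd79a and Cd79b kept out 10 and 5 cells, Cd3e kept out 1 and 4, and 42 and 29 cells inside carried 1 of the precursor genes while 11 and 13 outside carried 2.

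To see how the cells varied among themselves, those with 2 follicular markers (77 Sham, 70 TBI) were set beside those with 5 to 7 (84 Sham, 57 TBI), within each library. The median depths of these classes were 3052 and 3318 UMIs in Sham, and 2966 and 2838 in TBI. Of 2853 genes compared, 45 (1.58%) were at least 2-fold higher in both libraries in the cells with more markers and 65 (2.28%) were at least 2-fold lower. Since all genes come from the cells that were classed, these are descriptions. The median of all genes compared was -0.13 in Sham and -0.11 in TBI on the log2 scale, and centred on that median the counts became 54 higher and 49 lower.

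Of 4 transitional genes compared, 2 passed 2-fold, Vpreb3 and Cd24a, both lower in the cells with more follicular markers, and the medians of the list were -1.34 in Sham and -0.78 in TBI. Vpreb3 was at 2275, 1776, 841 and 455 CPM in Sham cells with 2, 3, 4 and 5 to 7 markers, and at 1976, 1365, 713 and 512 CPM in TBI cells. It thus fell at every step in both libraries, and the log2 ratio between the outer classes was -2.32 (-2.60 to -2.05) in Sham and -1.94 (-2.28 to -1.63) in TBI. Cd24a, a glycoprotein that is high on immature and transitional B cells, was at 1554, 1726, 1015 and 509 CPM in Sham and at 1576, 1433, 949 and 639 CPM in TBI. Cd72 and Dusp2, of other lists, were also past 2-fold and lower. Cd72, a coreceptor of the B cell identity list that dampens B cell receptor signals, was at 721 and 321 CPM in the outer classes of Sham and at 691 and 275 CPM in those of TBI. Dusp2, a phosphatase of MAP kinases in the early response list, had log2 ratios of -1.34 and -1.89. With all cells, Ms4a1 and Spib passed 2-fold in Sham alone. Ms4a1 was at 2965 and 1340 CPM in the outer classes of Sham and at 2684 and 1590 CPM in those of TBI. Spib, a transcription factor of the Ets family, was at 950 and 295 CPM in Sham and at 763 and 386 CPM in TBI, and it passed 2-fold in both libraries without predicted doublets (-1.59 and -1.18).

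The Vpreb3 promoter is printed here because among genes with at least 100 UMIs in these classes, leaving out immunoglobulin V genes, Vpreb3 fell furthest when each gene was ranked by its smaller change of the 2 libraries. The 160 bases before its RefSeq start (GRCm38.p6, plus strand, chr10:75948140-75948299) hold the octamer ATTTGCAT, the sequence bound by Oct factors of B cells, at 45 to 38 bases before the start. Capitals mark the octamer.
Vpreb3: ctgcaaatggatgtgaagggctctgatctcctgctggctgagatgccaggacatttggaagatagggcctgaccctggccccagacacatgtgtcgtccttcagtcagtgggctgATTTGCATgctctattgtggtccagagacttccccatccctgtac
Searched on both strands from 250 bases before to 50 bases after the start, the octamer was present in 570 of 32851 promoters (1.74%), and of the 6 transitional genes with a promoter in the table only Vpreb3 held it. A match describes the letters and not binding.

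Of 14 homing genes compared, 3 passed 2-fold, all higher in the cells with more follicular markers, and 8 were above 0 in both libraries, against 22.2% of all genes, with medians of 0.19 in Sham and 0.40 in TBI. Gpr183, the oxysterol receptor that places B cells at the follicle edge, had log2 ratios of 1.98 (1.05 to 3.18) and 3.30 (1.80 to 5.86), on 10 and 3 UMIs in the cells with 2 markers. Itgb7, the integrin β7 chain of mucosal homing, had 1.04 and 2.16, on 11 and 10 UMIs in the cells with 2 markers. Without cells that held 2 or more UMIs of the markers of T cells, macrophages, neutrophils, dendritic cells, NK cells, endothelium or fibroblasts (other-lineage cells below), Gpr183 was at 3.14 and 3.07 and Itgb7 at 1.05 and 4.45. Ccr7, the receptor for chemokines of T cell zones, was higher by 2-fold in Sham alone with all cells, at 147 and 355 CPM in the outer classes of Sham and 194 and 317 CPM in those of TBI, and in both libraries without other-lineage cells (1.27 and 1.14).

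The GIMAP family, GTPases needed for lymphocyte survival, had 4 of its 8 members at least 2-fold higher in both libraries (Gimap3, Gimap4, Gimap6 and Gimap7), and 7 of 8 above 0 in both. Gimap6 was at 233 and 553 CPM in the outer classes of Sham and at 173 and 444 CPM in those of TBI. Gimap4 had log2 ratios of 1.65 and 2.54, and of 1.51 and 3.11 without other-lineage cells. Bcl2, the inhibitor of cell death, had log2 ratios of 1.82 (0.38 to 3.96) and 1.91 (0.70 to 3.45), the ratio in Sham being 2.52 without other-lineage cells. It was the 1 gene past 2-fold of 7 compared in the BAFF and APRIL list, of which 1 was above 0 and 3 were below 0 in both libraries, with medians of -0.07 and -0.35. Ltb, the lymphotoxin chain that maintains follicles, was at 635 and 1276 CPM in Sham and at 590 and 1189 CPM in TBI. These log2 ratios of 1.00 and 1.01 lay at the threshold, and in TBI the ratio was 0.74 without other-lineage cells and 0.96 without predicted doublets. Ly6a, a surface protein of the interferon-induced list, had log2 ratios of 1.51 and 2.42, and of 1.28 and 1.45 without other-lineage cells. With cells thinned to 1000 UMIs it was detected in 13.0% of the follicular-marker B cells in Sham and 15.0% in TBI, and in 83.6% and 81.4% of endothelial cells, whose part in its ratio was not tested. Of the 18 genes compared in that list, 2 others, Isg15 (-1.30 and -3.34) and Ifi47, a GTPase (-1.43 and -1.38), were lower. Both calls were lost without other-lineage cells, where Isg15 was at -0.94 and -0.70 and Ifi47 at -1.36 and -0.96.

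MHC class II genes differed less evenly. H2-Aa, the α chain of I-A, was at 2909, 2525, 6084 and 6219 CPM in Sham cells with 2, 3, 4 and 5 to 7 markers and at 3780, 2792, 4478 and 5547 CPM in TBI cells. The log2 ratio of the outer classes was 1.10 in Sham and 0.55 in TBI. Without other-lineage cells it was 1.54 and 1.64, and 4 of 13 genes of the list were then at least 2-fold higher in both libraries and 1 lower, against 1.79% and 2.35% of all 2296 genes compared. With those cells it was 1 higher and 0 lower of 14. Endothelial markers put 20 Sham and 12 TBI cells in that class, and Pecam1, which lymphocytes also express, gave 87 of the 99 and 61 of the 152 endothelial marker UMIs. The gene past 2-fold with all cells was Icosl, the ligand of ICOS on T cells.

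**Figure D2:**
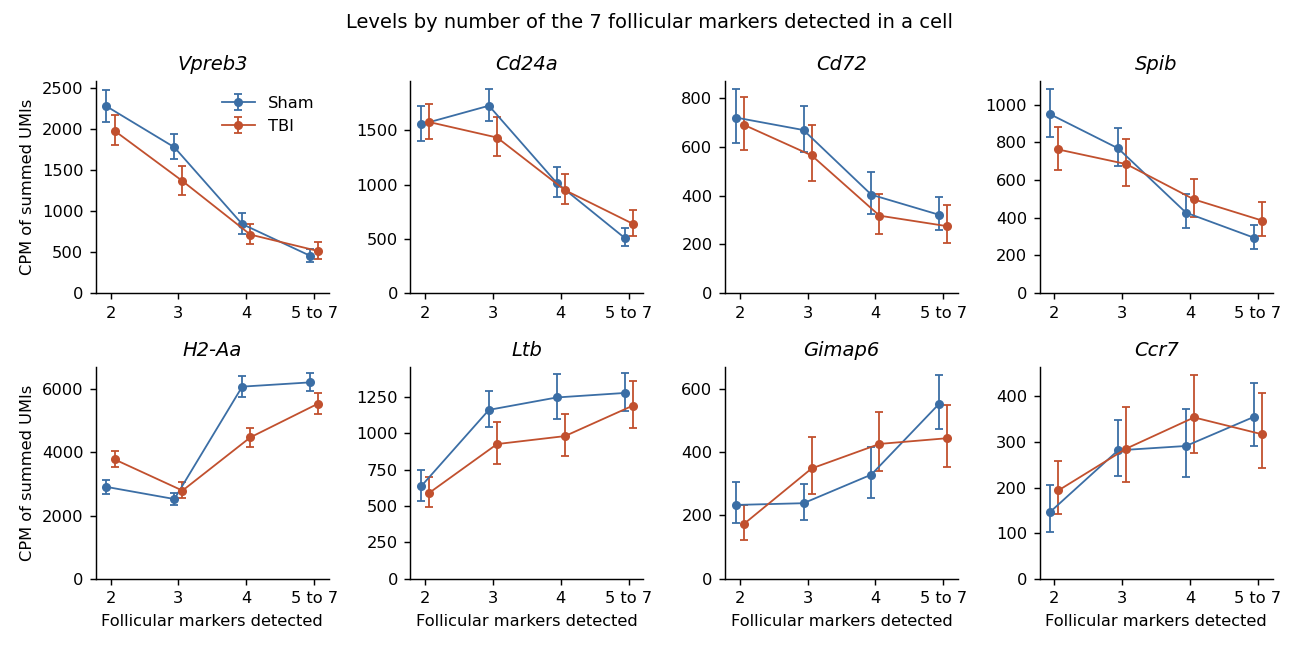
Level of 8 genes (CPM of UMIs summed over cells, y axes) in follicular-marker B cells with 2, 3, 4 or 5 to 7 of the 7 follicular markers detected (x axes), in the Sham (blue) and TBI (red) libraries, with exact Poisson 95% intervals. Vpreb3, Cd24a, Cd72 and Spib (top) were lowest in the cells with 5 to 7 markers, and Ltb (1276 CPM in Sham, 1189 in TBI) was highest there.

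B cell precursors of the same libraries (76 Sham, 97 TBI cells with at least 2 of the 6 precursor genes) were the earlier stage available for comparison. Of 6064 genes, leaving out those that chose the classes, 337 (5.56%) were at least 2-fold higher in the follicular-marker B cells in both libraries and 383 (6.32%) were at least 2-fold lower. The median of all genes was -0.18 in Sham and -0.14 in TBI, and centred on it the counts were 423 higher and 314 lower. Both counts describe classes defined on the same cells.

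The antigen presentation list was higher throughout. All 14 genes compared of 16 in the list were at least 2-fold higher in both libraries, with a median log2 ratio of 2.74 in Sham and 3.14 in TBI, also without other-lineage cells. H2-Aa was at 4391 CPM in the follicular-marker B cells and 303 CPM in the precursors of Sham, and at 4153 and 335 CPM in TBI (log2 ratios 3.85 and 3.63). H2-Eb1, the β chain of I-E in mice that carry a working α chain gene, was at 3221 and 177 CPM in Sham and at 2931 and 191 CPM in TBI (4.18 and 3.93). Without other-lineage cells the ratios in TBI were 4.56 for H2-Aa and 5.13 for H2-Eb1. Ciita, the coactivator that class II genes depend on, was at 82.3 and 15.8 CPM in Sham and at 86.6 and 11.3 CPM in TBI. Cd83, which holds class II at the surface, had 105 against 2 UMIs in Sham and 127 against 1 in TBI.

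The promoters of H2-Aa and H2-Eb1 are printed because, of the genes of the list whose promoter held the motif searched, these had the most UMIs. The capitals mark CTGATTGG, the inverted CCAAT box known as the Y box, at 51 to 44 bases before the start of H2-Aa (GRCm38.p6, minus strand, chr17:34287824-34287983) and 62 to 55 bases before that of H2-Eb1 (plus strand, chr17:34305707-34305866).
H2-Aa: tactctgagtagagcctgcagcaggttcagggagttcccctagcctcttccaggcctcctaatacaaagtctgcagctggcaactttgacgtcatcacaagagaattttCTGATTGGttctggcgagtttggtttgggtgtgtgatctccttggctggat
H2-Eb1: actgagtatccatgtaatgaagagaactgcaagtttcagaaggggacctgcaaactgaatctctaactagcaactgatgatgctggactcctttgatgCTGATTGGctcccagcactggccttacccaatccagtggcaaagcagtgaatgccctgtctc
These letters, searched on both strands, were in 1346 of 32851 promoters (4.10%). Of the 11 genes of the list with a promoter in the table, H2-Aa, H2-Eb1 and H2-Oa held them.

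Of 11 genes compared of the BAFF and APRIL list, 3 were higher and 1 was lower. Tnfrsf13c, the BAFF receptor, was at 758 CPM in the follicular-marker B cells and 192 CPM in precursors of Sham and at 729 and 205 CPM in TBI. Tnfrsf13b, the receptor TACI, had log2 ratios of 1.19 and 1.43. Bcl2 was higher, with 54 against 1 UMIs in Sham (log2 ratio 3.46, 1.49 to 9.36) and 50 against 2 in TBI, and Bcl2l1, which encodes Bcl-xL, was lower, with 10 against 36 UMIs and 2 against 31. Outside that list, Cd22, an inhibitory coreceptor, had log2 ratios of 2.49 and 2.51.

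Transcription factors moved in both directions, 5 of 23 higher and 6 lower. Pou2f2 (Oct-2), Irf8, Mef2c, Klf3 and Zfp318, the factor required for IgD transcripts, were higher, Zfp318 with log2 ratios of 1.31 (0.33 to 2.66) and 1.16 (0.17 to 2.43). Sox4, a factor of early lymphocyte development, was at 35.4 CPM in the follicular-marker B cells and 360 CPM in precursors of Sham and at 40.2 and 358 CPM in TBI. Lef1 (-3.67 and -4.09), Bach2 (-1.91 and -1.96), Irf4, Tcf3 and Ebf1 (-1.23 and -1.46) were also lower. Pax5, which holds B cell identity, was at 306 and 379 CPM in Sham and at 279 and 282 CPM in TBI.

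Homing genes included 8 of 21 that were higher, among them Ccr7, Gpr183 and S1pr1, the receptor that guides exit into blood (log2 ratios 1.08 and 1.08). Without other-lineage cells, 6 of 21 were higher, and Ccr7 (0.95) and S1pr1 (0.98) fell short of 2-fold in Sham. Cxcr4, which holds precursors in marrow, was 1 of 3 that were lower, at 35.4 and 123 CPM in Sham and at 28.9 and 124 CPM in TBI. GIMAP genes were higher in 6 of 8. Of the transitional list, 5 of 8 were lower, with Myb at -4.42 and -4.16, Cd93 at -3.39 and -2.98, and Vpreb3 at -1.55 (-1.66 to -1.44) and -1.75 (-1.87 to -1.63). The 5 proliferation genes compared were all lower. Mki67 had 3 UMIs in the follicular-marker B cells of each library against 117 and 103 in the precursors (log2 ratios -6.79, -9.30 to -5.42, and -6.05, -8.57 to -4.68), and Top2a had 3 and 3 against 136 and 88.

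**Figure D3:**
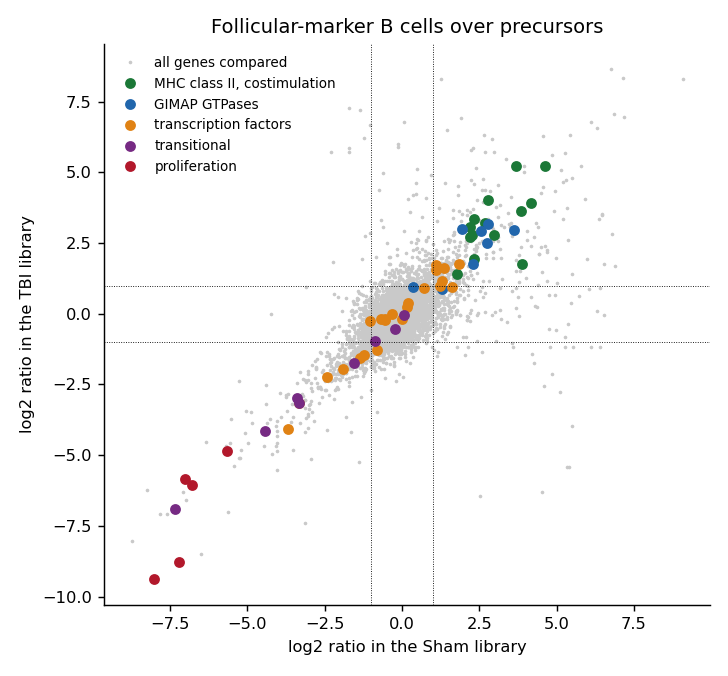
Log2 ratio of follicular-marker B cells over B cell precursors in the Sham library (x axis) and the TBI library (y axis) for all genes compared (grey), with 5 gene lists in color and dotted lines at 2-fold. The 14 MHC class II and costimulation genes lie past 2-fold at the upper right, and the 5 proliferation genes at the lower left.

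Ms4a1 B cells lacking follicular markers (51 Sham, 65 TBI) were nearer. Of 5417 genes compared, 74 (1.37%) were at least 2-fold higher in the follicular-marker B cells in both libraries and 55 (1.02%) lower, and centred on the median of all genes (-0.11 in both libraries) the counts were 92 and 35. Immunoglobulin V genes, each carried by few cells, were 32 of the 74 and 5 of the 55. Itgb7 had 66 UMIs in the follicular-marker B cells against 3 UMIs in Sham, and 75 against 3 in TBI, which gave log2 ratios of 1.33 (-0.07 to 3.85) and 2.12 (0.73 to 4.64), and of 2.36 and 1.61 without other-lineage cells. Gimap6 (1.29 and 1.09), Gimap3 and Gimap7 were the 3 of 8 GIMAP genes past 2-fold. Without predicted doublets, Gimap7 was at 0.91 in TBI. Ly6a had log2 ratios of 1.79 and 2.19, on 9 and 10 UMIs in the other class, and of 2.17 and 1.97 without other-lineage cells.

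On the lower side were 3 of 7 transitional genes. Vpreb3 was at 1319 CPM in the follicular-marker B cells and 2767 CPM in the other Ms4a1 B cells of Sham and at 1185 and 2837 CPM in TBI (log2 ratios -1.07 and -1.26). Cd93, a receptor lost at the end of the transitional stage, had log2 ratios of -1.76 (-2.85 to -0.48) and -1.69 (-2.63 to -0.67), and -1.90 and -1.87 without other-lineage cells. Endothelial cells also express Cd93, which was detected in 47.9% and 39.0% of them after thinning and in 0.685% and 2.56% of the follicular-marker B cells. Myb, the factor of early progenitors, had log2 ratios of -2.36 and -2.49. Cd72 was the gene of the B cell identity list past 2-fold, at -1.08 and -1.31. Shc1, an adaptor of the B cell receptor list (-1.15 and -1.55), and Map3k14, the kinase NIK downstream of the BAFF receptor (-1.76 and -1.14), were also lower, though Shc1 was at -0.41 in Sham without other-lineage cells. None of 14 MHC class II and costimulation genes passed 2-fold in both libraries, though 10 of 14 were above 0 in both, against 20.8% of all genes, with medians of 0.42 in Sham and 0.99 in TBI. Predicted doublets included 8 of the 65 TBI cells of the other class. Without predicted doublets, 4 of 14 passed 2-fold, all higher, and the medians were 0.80 and 0.88. Of all 4973 genes compared in that setting, 1.67% were higher and 1.01% lower. Other-lineage cells were 1 of the 51 Sham and 13 of the 65 TBI cells. Without them none of 14 passed, against 1.54% higher and 0.921% lower of all 4667 genes.

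Between TBI and Sham, few genes of the follicular-marker B cells differed by 2-fold. Hemoglobin and mitochondrial genes were left out. Of 4882 other genes with at least 50 UMIs over both libraries, 66 (1.35%) were at least 2-fold higher in TBI and 50 (1.02%) lower. V genes made up 26 of the 66 and 31 of the 50, and outside V genes 1.24% of 4760 genes passed 2-fold. The summed UMIs were 1044904 in Sham and 796698 in TBI. None of the 17 identity genes compared, 22 transcription factors, 9 BAFF and APRIL genes, 14 MHC class II and costimulation genes or 8 GIMAP genes passed 2-fold. Their median log2 ratios were -0.15, -0.07, -0.06, 0.02 and -0.10, against 0.02 over all genes. Of the 17 identity genes, 15 were below 0, against 46.7% of all genes. Tnfrsf13c was at 758 CPM in Sham and 729 CPM in TBI.

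The interferon-induced list was the one whose median lay highest among lists with at least 10 genes compared. Of 25 genes compared, 3 passed 2-fold, all higher in TBI, 21 were above 0, against 53.3% of all genes, and the median log2 ratio was 0.25. Isg15, a ubiquitin-like protein, had 26 UMIs in 22 Sham cells and 72 UMIs in 14 TBI cells (log2 ratio 1.84, 1.20 to 2.57). Irf7, the factor that amplifies interferon, had 32 and 54 UMIs (1.14, 0.49 to 1.82), and Oasl2 had 19 and 37 (1.33, 0.52 to 2.23). These values rested on few cells. The 30 Sham and 34 TBI cells that held 2 or more UMIs of another lineage's markers were then left out. Without them, Isg15 was at 0.54, Irf7 at -0.0844 and Oasl2 at 0.68. None of 19 genes of the list passed 2-fold, 10 of 19 were above 0, and the median was 0.02. Over all 4189 genes in that setting, 0.979% were higher and 0.979% lower, and the median was also 0.02. Without the 10 Sham and 11 TBI cells predicted to be doublets, the median was 0.06 and none of 21 passed. Over all 4508 genes in that setting, the median was 0.01, and 1.02% were higher and 0.976% lower. Macrophage markers had 602 UMIs in Sham and 352 in TBI, C1qb having the most, and 3 cells in each library held 96.7% and 91.5% of them. Lyz2, a gene of the macrophage list left out of that sum, went the other way, with 316 UMIs in Sham and 492 in TBI. Its log2 ratio was 1.03 (0.82 to 1.24), and 3 cells held 80.4% and 93.3% of its UMIs. Endothelial markers were found in 75 Sham and 59 TBI cells, and 3 cells held 10.1% and 47.4% of their UMIs.

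Among early response and signaling genes, Nfkbid, an inhibitor of the IκB family needed for B1 and marginal zone B cells, had 64 UMIs in 33 Sham cells (61.3 CPM) and 168 UMIs in 36 TBI cells (211 CPM). Its log2 ratio was 1.78 (1.36 to 2.22), and 1.93 without other-lineage cells. It was detected in 10.8% of the cells in Sham and 14.6% in TBI, and in 4.45% and 6.84% after thinning to 1000 UMIs. In TBI, 3 cells held 53.0% of its UMIs, and in Sham 3 cells held 35.9%. Egr1, an early gene of receptor signaling, had 34 and 62 UMIs (1.25, 0.63 to 1.91). These were the 2 of 21 early response genes past 2-fold. Nfatc1, a calcium-dependent factor, was the gene of the B cell receptor list past 2-fold, with 92 UMIs in Sham and 33 in TBI (-1.07, -1.71 to -0.50), and Cd44, an adhesion receptor, that of the homing list (1.06, 0.31 to 1.85). Nfatc1 was at -0.97 without predicted doublets, just short of 2-fold. Cd44 was at 0.59 without predicted doublets and 0.54 without other-lineage cells, and 3 cells held 57.5% of its 40 UMIs in TBI.

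Transcripts of other cell types moved with the libraries. Igfbp5, a secreted protein of fibroblasts, had 5 UMIs in 5 Sham cells and 157 UMIs in 64 TBI cells. Mgp, a matrix protein, had 6 UMIs in 5 Sham cells and 156 in 64 TBI cells. In TBI, 3 cells held 54.1% of the Igfbp5 UMIs, and 3 cells held 42.9% of the Mgp UMIs. In precursors, Igfbp5 was at 12.6 CPM in Sham and 113 CPM in TBI, and Mgp at 9.47 and 113 CPM, so the rise was also present in another class of the same libraries. The fibroblast markers as a whole had 9 UMIs in 7 Sham cells, with Lum at 0, and 111 in 47 TBI cells, of which Col1a2 gave 48. Red cell transcripts went the other way, with 1652 UMIs in 281 Sham cells and 243 in 128 TBI cells, Hbb-bs having the most UMIs with 712 and 110. The part of free RNA in these values was not tested.

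**Figure D4:**
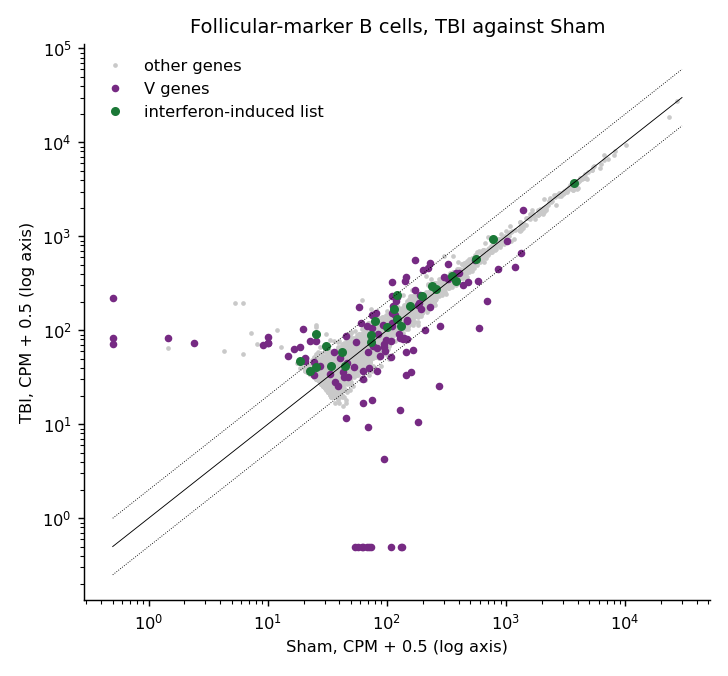
Level of each gene compared in follicular-marker B cells, in CPM of summed UMIs plus 0.5, in the Sham library (x axis, log scale) and the TBI library (y axis, log scale), with immunoglobulin V genes in purple, the interferon-induced list in green, a solid line at equal levels and dotted lines at 2-fold. V genes make up 57 of the 116 genes past 2-fold, and those at the bottom or left edge had 0 UMIs in 1 library.

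Some immunoglobulin V genes were found in 1 library alone, and others in both at different levels. As background, each B cell expresses 1 rearranged heavy chain and 1 rearranged light chain, κ or λ, so V transcripts mark its receptor. Igkv1-133 had 0 UMIs in Sham and 174 in TBI, of which 3 cells held 94.8%, and Igkv4-80 had 140 UMIs in 5 Sham cells and 0 in TBI. Ighv3-6 had 116 UMIs in 12 Sham cells and 263 UMIs in 12 TBI cells (log2 ratio 1.57, 1.25 to 1.90), with 51.7% and 53.2% of them in 3 cells. Some V genes of a family are similar in sequence, so reads could be split between them, which was not tested.

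Light chain V genes gave 17594 UMIs in Sham and 12034 in TBI, with a median of 48 and 42 per cell. Of cells with at least 10 such UMIs (285 and 221), 233 (81.8%) and 169 (76.5%) had at least 80% of them from 1 V gene. Of these, 19 Sham cells (8.15%, 4.98 to 12.4) and 16 TBI cells (9.47%, 5.51 to 14.9) used a λ V gene, and the rest a κ V gene. The λ share thus differed by less than its interval. Endothelial cells held a light chain V UMI in 2.81% of cells in Sham and 6.22% in TBI, and 0 of them held 10.

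The λ constant regions did not follow the V genes, while Igkc, the κ constant region, was higher in cells with a κ V gene. Cells with a κ V gene averaged 6.25 UMIs of Igkc and 12.3 UMIs of the λ constant regions in Sham, and 5.57 and 11.8 in TBI. Cells with a λ V gene averaged 2.11 and 11.5 UMIs in Sham, and 1.75 and 10.4 in TBI. UMIs of λ constant regions were thus as many in κ as in λ cells, and light chain V UMIs were 3.37 times those of all light chain constant regions in Sham and 3.09 times in TBI. Called by constant regions, with at least 10 UMIs and 90% from Igkc, 5 of 229 cells in Sham (2.18%, 0.713 to 5.02) and 1 of 175 in TBI (0.571%, 0.0145 to 3.14) would be κ cells, so the type was read from V genes. The reason for the low Igkc count was not tested.

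The cells with a dominant light chain V gene used 62 such genes in Sham and 59 in TBI. Igkv1-117 was dominant in 15 and 10 cells, and Iglv1, a λ gene on chromosome 16, in 14 and 11. Igkv10-96 was dominant in 15 and 4 cells, and Igkv1-135 in 11 and 7. By the limits used for light chains, a heavy chain V gene was dominant in 177 Sham and 134 TBI cells. These cells used 61 heavy chain V genes in Sham and 53 in TBI. Ighv1-9 was dominant in 5 and 11 cells, Ighv3-6 in 6 and 9, and Ighv9-3 in 12 and 3. Both chains could be called in 143 Sham and 100 TBI cells. These held 138 and 97 different pairs of V genes, and no pair was found in more than 2 cells.

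**Figure D5:**
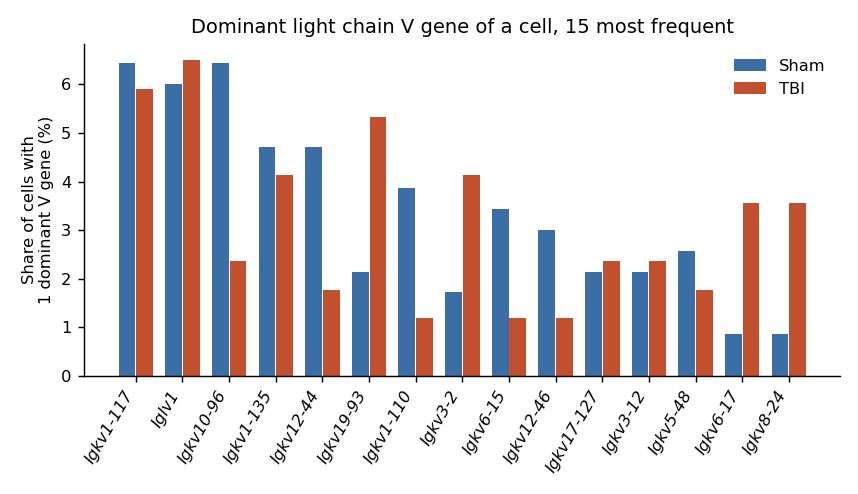
Share of follicular-marker B cells with 1 dominant light chain V gene (%, y axis; 233 Sham cells in blue, 169 TBI cells in red) that used each of the 15 most frequent V genes (x axis). No V gene exceeded 6.51% in either library, with Igkv1-117 and Iglv1 near 6% in both.

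The ligands of receptors on follicular B cells differed widely in abundance among all filtered cells. Cxcl12, the ligand of CXCR4, had the most UMIs of these genes, with 1200 UMIs in 248 Sham cells and 2695 UMIs in 720 TBI cells (153 and 193 CPM of all filtered cells). Tnfsf13, which encodes APRIL, had 169 UMIs in 124 Sham cells and 518 UMIs in 384 TBI cells (21.5 and 37.2 CPM). Tnfsf13b, which encodes BAFF, had 83 UMIs in 69 Sham cells and 146 UMIs in 121 TBI cells (10.6 and 10.5 CPM), of which macrophage-marker cells held 47 and 121. Cxcl13, the ligand of CXCR5, had 79 UMIs in 1 Sham cell and 54 UMIs in 10 TBI cells (10.04 and 3.87 CPM), and none in the follicular-marker B cells. Ccl21a, a ligand of CCR7, had 44 UMIs in 1 Sham cell and 4 UMIs in 4 TBI cells (5.59 and 0.287 CPM), while Ccl19, the other ligand, had 41 UMIs in 18 cells and 175 UMIs in 93 (5.21 and 12.6 CPM).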

How the data were processed

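Dorsal meninges of 5 pooled mice per group gave 1 Sham and 1 TBI library, about 4000 cells loaded each. The authors deposited raw UMI counts per gene and barcode, filtered to cells, with reads aligned to mm10. The submitters' processing notes name Cell Ranger 2.1.1 and the matrix headers name 3.1.0. Counts are 3′ tags, which do not scale with transcript length.

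Cells were kept with 150 to 5000 genes, no more than 20% of UMIs from mitochondrial genes and no more than 5% from hemoglobin genes (501 to 29604 UMIs per cell). The selection was applied to raw counts. UMIs were summed per class and library and given as CPM with exact Poisson intervals. Genes with at least 50 UMIs over the sums of a comparison were compared by the log2 ratio of CPM, 0.5 added to each sum, with an exact binomial interval. Hemoglobin and mitochondrial genes were left out of all comparisons. Between TBI and Sham, Hba-a1, Hba-a2, Hbb-bs and Hbb-bt were at -2.53, -2.33, -2.30 and -2.54. With 1 library per group no test was run, and a 2-fold ratio is the threshold, in both libraries for comparisons within libraries. Intervals cover counting error only. The cells and gene lists were chosen with earlier results of these data known. Genes named are those of the selection, of the 24 lists, and the 10 with the largest ratio each way among genes with at least 100 UMIs. The comparison by number of markers, and the V genes named for their use by cells, were chosen after the data were seen. Values of some list genes are not reported here.

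Endothelial cells (at least 3 of 6 markers, no Ptprc UMI) served as a gauge of free RNA, for genes that they do not express. Doublets were predicted by simulation from 2 doublets per cell and 40 neighbours at 0.8% per 1000 cells, which marked 33 Sham and 114 TBI cells, and were kept except in an alternative. Clusters used 2000 variable genes, 20 components and Leiden resolution 0.8. Thinning drew 1000 UMIs per cell, from cells with at least 1000. Python 3.11.15, numpy 2.4.6, scipy 1.17.1, pandas 2.3.3, scikit-learn 1.9.0, scanpy 1.11.5 and leidenalg 0.10.2 were used, and the ratio code was tested on simulated data. Promoters are from RefSeq. Alternatives varied the cell filters, count minimum, fold, scaling, pseudocount, depth, doublets, marker threshold and other-lineage cells.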

Additional observations from a re-analysis of the deposited data

Results flagged for a closer look

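Beyond the hemoglobin limit, 6 Sham barcodes met the B cell criteria, of 604 over the limit, and 0 of 431 in TBI.

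Some genes of the follicular-marker B cells lay on opposite sides of 0 in the libraries, and these differences were not tested. Over Ms4a1 B cells lacking follicular markers, the log2 ratio in Sham and then TBI was -0.69 and 0.77 for Bcl11a, a B lineage factor, -0.24 and 0.56 for Iglc2, a λ constant region, and 5.38 and -0.731 for C1qc, a complement gene of macrophages. Over precursors it was -0.69 and 3.32 for Nfkbid, whose precursor level was 31 UMIs in Sham and 7 in TBI. The macrophage genes C1qa (5.27 and -0.809), C1qc (4.99 and -0.568) and Mrc1 (3.56 and -1.05) also differed in sign, and 3 cells held 96.7% of macrophage marker UMIs among the Sham cells.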

How the results depend on the processing

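No paired analysis was possible because each group is 1 library, and for the same reason no library could be left out. The share of follicular-marker B cells was lower in TBI under all 8 alternatives of its selection and denominator. It was 10.4% in Sham and 4.05% in TBI among cells with at least 1000 UMIs, thinned to 1000 (-6.34 points). With at least 3 markers it was 11.2% and 4.69% (-6.52), and without the hemoglobin limit 13.4% in Sham. It was 22.9% and 12.8% of cells with a Ptprc UMI, and 70.7% and 60.4% of the B lineage (-10.3).

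The numbers of genes past the fold depended on the count minimum, the fold and the depth. For TBI over Sham, 230 were higher and 145 lower at 20 UMIs, 19 and 23 at 100, 2713 and 1437 with no minimum, 263 and 171 at 1.5-fold, and 16 and 16 after thinning, and 41 were higher without other-lineage cells, where Irf7 turned to -0.0844. Over Ms4a1 B cells lacking follicular markers, 139 were higher and 193 lower at 20 UMIs, 41 and 16 at 100, 182 and 1866 with no minimum, 179 and 293 at 1.5-fold, and 39 and 20 after thinning, and 35 were lower when centred on the median and 92 by the mean over cells. Over precursors, 640 were lower at 20 UMIs and 220 at 100, 722 were higher and 2003 lower with no minimum, 596 and 880 at 1.5-fold, and 143 and 153 after thinning, where Irf7 in Sham turned to -0.43. By number of markers, a comparison added after seeing the data, 92 were higher and 146 lower at 20 UMIs, 18 and 25 at 100, 445 and 645 with no minimum, 118 and 209 at 1.5-fold, and 6 and 21 after thinning. Thinning and a minimum of 100 leave fewer genes to compare. At a minimum of 20 light chain constant UMIs, 0 Sham cells were κ by constant regions, which allows up to 3.55%. Of the named genes, 768 values of TBI over Sham stayed within their counting interval, 47 moved out of it and 1, that of Irf7, was past 2-fold and changed sign. Among those that moved, C1qa, C1qb and C1qc, not past 2-fold, changed sign without predicted doublets (from -0.67, -0.37 and -0.44 to 0.22, 0.74 and 0.315). They are among the markers that define other-lineage cells, so their values without those cells carry no information.

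Depth limits genes at few UMIs: a class of 51 Sham cells reaches down to 21.7 CPM at 3 UMIs, and the follicular-marker B cells to 2.87 CPM in Sham and 3.77 CPM in TBI.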
